A study of Mus musculus with 8 samples.

Results

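The genes of the neuromuscular junction followed here are 10 genes measured across 8 mouse knee joint libraries, 4 labelled control and 4 labelled knockout. They were chosen by name from the 20681 genes of the deposited table, and all 10 had a row there: the acetylcholine receptor subunits Chrna1, Chrnb1, Chrnd, Chrne and Chrng, the synapse organisers Musk, Dok7, Rapsn and Lrp4, and the collagen-tailed anchor Colq. Per the labels, the mice carried Acan-Cre together with Loxl2 fl/fl, so that Cre is driven by the promoter of aggrecan, a gene of cartilage cells, and Loxl2, which encodes a collagen-crosslinking enzyme, is deleted where Cre is made. The control libraries are named Vehicle, DMM and LOXL2wt, and the others KO, DMM and LOXL2ko. DMM is not spelled out in the labels and is a common abbreviation of medial meniscus destabilisation, which injures the joint, and all 8 libraries carry it. What was given to the knockout mice in place of vehicle, the age of the animals and the time after injury are not given in the sources used here.

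The neuromuscular junction is the synapse at which a motor axon releases acetylcholine onto a skeletal muscle fibre. Agrin from the nerve binds Lrp4 on the fibre, Lrp4 activates the receptor tyrosine kinase Musk with the help of the adaptor Dok7, and the scaffold protein rapsyn, encoded by Rapsn, then gathers the receptors under the nerve terminal. Receptors of developing or denervated fibres carry the gamma subunit (Chrng), which the epsilon subunit (Chrne) replaces in innervated adult fibres. Most of these transcripts are made by the few nuclei beneath the synapse, and in a knee sample they are measured as far as muscle with its synapses was dissected along with the joint.

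The promoter windows of the receptor subunits and of Musk are shown because Chrna1 and Chrne varied together from library to library and Musk did not follow them, with the windows of Chrnb1 and Chrng beside them as those of further subunits. A window runs from 250 bases before to 50 bases after a start of transcription in RefSeq on GRCm38.p6. Of the 10 genes 6 had a window, Dok7 with 2 of them, and 4 were without one (Chrnd, Rapsn, Lrp4 and Colq). Capitals mark the E-box, CANNTG, the motif of the myogenic basic helix-loop-helix factors, and the N-box, CCGGAA, the motif through which Ets factors direct expression to synaptic nuclei. Both strands were searched, and no E-box overlapped an N-box.
Chrna1: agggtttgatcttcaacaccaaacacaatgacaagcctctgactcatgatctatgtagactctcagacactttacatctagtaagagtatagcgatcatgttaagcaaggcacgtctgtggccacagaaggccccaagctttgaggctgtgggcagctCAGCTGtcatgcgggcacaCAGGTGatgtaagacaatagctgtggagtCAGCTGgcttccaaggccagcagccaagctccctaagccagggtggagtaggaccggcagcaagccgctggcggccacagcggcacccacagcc
Chrnb1: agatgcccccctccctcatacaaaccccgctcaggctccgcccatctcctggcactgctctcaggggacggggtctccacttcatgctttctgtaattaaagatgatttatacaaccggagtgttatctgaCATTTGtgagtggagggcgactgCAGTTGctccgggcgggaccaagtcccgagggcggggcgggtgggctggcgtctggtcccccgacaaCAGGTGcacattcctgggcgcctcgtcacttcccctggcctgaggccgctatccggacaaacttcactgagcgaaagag
Chrne: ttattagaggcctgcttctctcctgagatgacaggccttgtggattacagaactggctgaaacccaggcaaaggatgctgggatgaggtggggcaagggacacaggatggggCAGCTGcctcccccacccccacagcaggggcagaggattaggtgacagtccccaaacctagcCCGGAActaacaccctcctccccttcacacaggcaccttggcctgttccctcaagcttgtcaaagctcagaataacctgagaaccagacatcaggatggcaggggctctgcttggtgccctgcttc
Chrng: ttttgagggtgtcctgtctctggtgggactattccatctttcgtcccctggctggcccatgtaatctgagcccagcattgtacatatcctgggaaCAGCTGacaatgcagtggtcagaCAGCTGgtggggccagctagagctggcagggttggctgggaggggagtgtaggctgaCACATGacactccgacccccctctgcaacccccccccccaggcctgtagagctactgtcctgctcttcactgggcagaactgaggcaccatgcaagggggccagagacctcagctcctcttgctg
Musk: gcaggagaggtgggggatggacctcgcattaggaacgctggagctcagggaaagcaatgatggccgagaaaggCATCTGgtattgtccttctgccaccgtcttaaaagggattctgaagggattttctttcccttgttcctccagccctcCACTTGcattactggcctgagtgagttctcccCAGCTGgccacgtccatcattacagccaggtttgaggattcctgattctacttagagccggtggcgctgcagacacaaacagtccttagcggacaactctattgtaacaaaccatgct

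The Chrna1 window lies on the minus strand at chr2:73580289-73580588, that of Chrnb1 on the minus strand at chr11:69795888-69796187, and that of Chrne on the minus strand at chr11:70619145-70619444. Those of Chrng and Musk lie on the plus strand at chr1:87205561-87205860 and chr4:58285712-58286011. Of the 7 windows only that of Chrne held an N-box, 76 bases before the start, and 14.9% of the 32851 windows in the table hold one. The Chrne window has a single E-box, whereas those of Chrna1, Chrnb1, Chrng and Musk hold 3 each, a number reached or passed by 17.6% of all windows. At least 1 E-box was present in 72.3% of all windows and in 6 of the 7 windows of these genes. These matches describe the letters of the windows and show no binding.

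Depth and composition were as follows. The reads assigned to genes, recovered from the deposited values, came to between 13991000 and 17411617 per library, and no 2 libraries of a group agreed within counting error. Loxl2 itself went against its label, with a log2 difference of 1.44 (SE 0.40) towards higher values in the libraries labelled knockout (limma adjusted p = 0.0294, exact permutation p = 0.0857), so the groups are called by their labels. By Xist and Ddx3y, 5 libraries came from females (control replicates 1 and 2, knockout replicates 1, 3 and 4) and 3 from males. The labels name no separate animals, so p-values measure the spread between these libraries. Values below are normalised read counts, which are read counts divided by the library's size factor, and differences are log2 values of the libraries labelled knockout minus control on the log2(value + 1) scale.

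Of the 9 genes that could be tested, 8 had lower means in the libraries labelled knockout under the deposited scaling, and 3 of them passed the test. Colq fell by 0.84 on the log2 scale, Chrnb1 fell by 0.53 and Rapsn fell by 0.45. Chrna1, Chrnd, Chrne, Musk and Dok7 had differences of -0.84 to -0.47 that did not pass, and Lrp4 had a difference of 0.18. Chrng did not reach the filter for testing, which asked for 10 or more normalised reads in at least 4 libraries. The median difference of the 9 genes was -0.58, against 0.00 over all 14949 genes tested. A difference below 0 was seen for 49.9% of all genes tested. The same fit called 23.2% of all genes (limma, adjusted p below 0.05), which is 11.6% of all genes higher and 11.6% lower. The 3 calls among 9 genes were all lower, and whether their number differs from this background was not tested.

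The same libraries differed in their level of muscle fibre transcripts. All 18 genes of a list of skeletal muscle fibre genes had a log2 difference below 0 (for Tnnc2 -0.03, with a slightly higher mean count in the libraries labelled knockout), 9 of them were called lower, and their median difference was -0.69. Their most significant members were Ryr1, the calcium release channel, which fell by 1.04, Casq1, the calcium store protein calsequestrin, which fell by 0.79, and Pygm, muscle glycogen phosphorylase, which fell by 0.91. The summed normalised count of that list ran from 2550000 to 2771000 in the control libraries and from 1236000 to 1740000 in those labelled knockout, and no gene of it was at 0 in any library. The fall was not even, as Myh1 had a difference of -0.06. Tnnc2 held only 7 to 18 reads per library, and it has the weight of 1 of the 18 genes in the scaling described next. In a bulk sample fewer muscle cells and less RNA per muscle cell cannot be told apart.

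When each library was instead scaled so that the mean log2 value of the 18 muscle fibre genes was equal in all libraries, 0 of the 9 junction genes were called lower by limma (0 lower at an unadjusted p under 0.05), where 0.127% of all genes were called lower. Colq then had a difference of -0.16 (limma adjusted p = 0.508), Chrnb1 0.15 (adjusted p = 0.405), Rapsn 0.24 (adjusted p = 0.119), Dok7 0.22, Chrna1 0.01, Chrne -0.07, Chrnd -0.17 and Musk 0.10. Lrp4 was called higher, by 0.87 (adjusted p = 0.00723), on a scale on which the median of all genes moved to 0.68 and 67.1% of all genes were called higher.

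**Figure D1:**
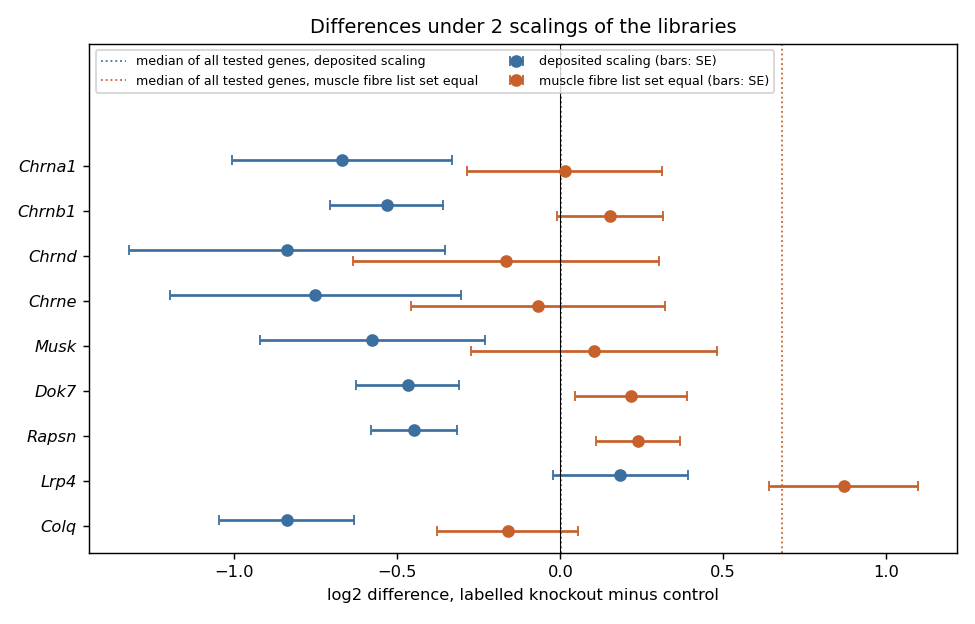
Log2 difference, libraries labelled knockout minus control (horizontal axis), with its standard error, for the 9 tested genes under the deposited scaling and with the muscle fibre list set equal. Dotted lines mark the median of all tested genes, 0.00 and 0.68, and 8 of the 9 genes lie left of the line of their scaling in both.

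**Figure D2:**
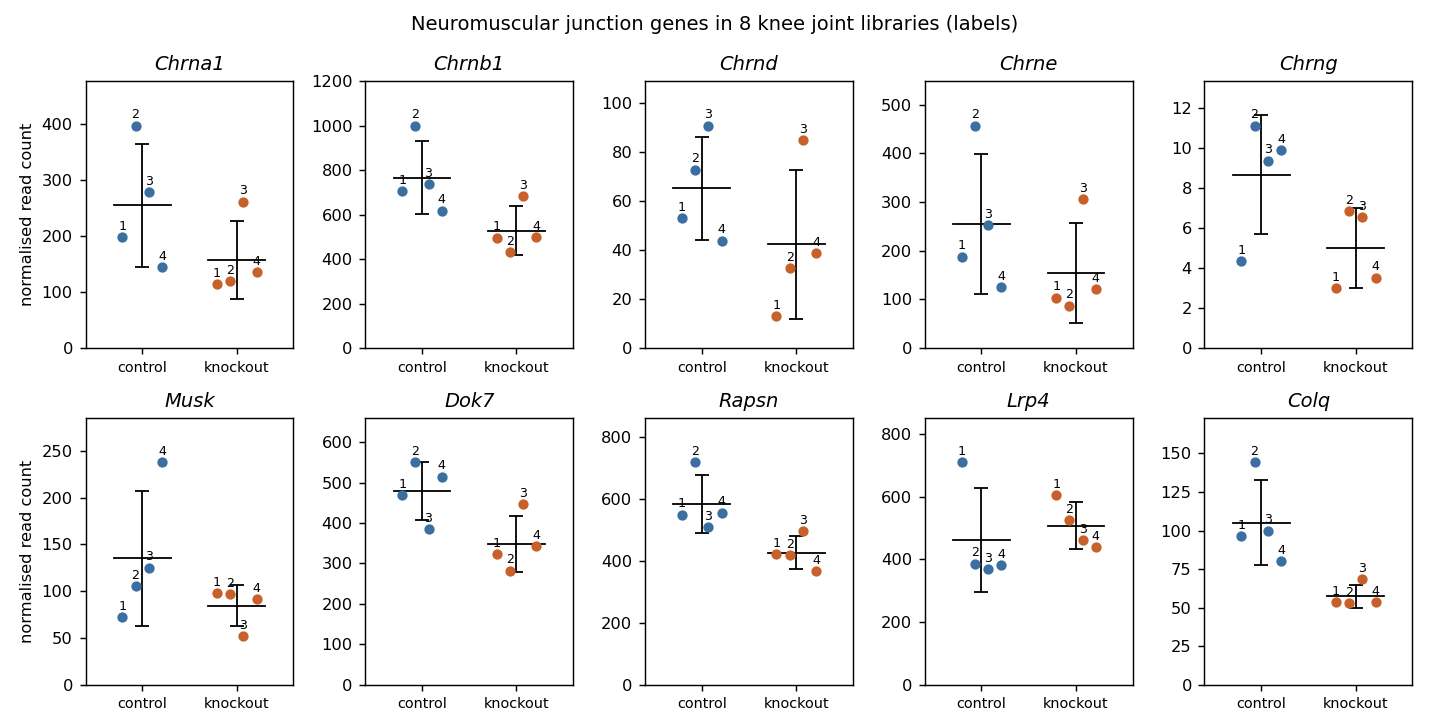
Normalised read count (vertical axis, from 0) of each of the 10 genes in the 4 control and the 4 libraries labelled knockout. Points are libraries numbered by replicate, the long line is the group mean and the bar is 1 SD. Control replicate 2 and knockout replicate 3 are the highest of their groups for Chrna1, Chrnb1, Chrne, Dok7, Rapsn and Colq.

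Among the receptor subunits, Chrnb1 (chromosome 11, 69784036 to 69795943), which encodes the beta subunit shared by the foetal and adult receptors, was the only one called. Its normalised read count was 707, 1001, 737 and 619 in the control libraries (here and below, from replicate 1 to replicate 4) and 497, 432, 685 and 501 in those labelled knockout. In all, 3 control libraries lay above all libraries labelled knockout, and knockout replicate 3 lay within the control range. The difference was -0.53 ± 0.17 (SE; limma adjusted p = 0.0499, exact permutation p = 0.0571), so the call sat at the threshold, and it was lost on leaving out any 1 of controls 1, 2 and 3 and knockouts 1, 2 and 4 (adjusted p 0.071 to 0.121) and with edgeR (adjusted p = 0.0549). DESeq2 kept it (adjusted p = 0.0263). Over all genes edgeR called 22.2% and DESeq2 27.6%, and of the 9 genes they called 2 and 4.

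Chrna1 (chromosome 2, 73563215 to 73580338) encodes the alpha subunit that binds acetylcholine. It had normalised counts of 198, 397, 278 and 145 in the control libraries and 115, 120, 261 and 136 in those labelled knockout. The groups overlapped, because knockout replicate 3 was above control replicates 1 and 4. The group means were 254 ± 110 and 158 ± 69.4 (SD, n = 4), a difference of -0.67 with a standard error of 0.34 that was not called (limma adjusted p = 0.173, exact permutation p = 0.171).

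Chrne (chromosome 11, 70614883 to 70619216), the gene of the adult epsilon subunit, had 188, 457, 252 and 125 normalised reads in the control libraries and 104, 87.2, 306 and 121 in those labelled knockout. The pattern was that of Chrna1, with control replicate 2 and knockout replicate 3 highest and 3 of 4 libraries labelled knockout below every control library. The spread within the groups was wide, with coefficients of variation of 56.4% and 66.0%, and the difference of -0.75 ± 0.45 (SE) was not called (limma adjusted p = 0.246, exact permutation p = 0.257). The annotation places the coding gene 4930544D05Rik on the opposite strand inside Chrne. The use of strand in counting is not given in the sources used here, so reads of the overlapping stretch may belong to either gene.

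Chrnd (chromosome 1, 87190607 to 87200070) encodes the delta subunit. Its normalised counts were 53.0, 72.7, 90.7 and 43.8 in the control libraries and 12.96, 32.5, 84.8 and 38.7 in those labelled knockout. Knockout replicate 1 was the lowest of all 8 libraries, at 13 reads, and knockout replicate 3 was above 3 of the 4 controls. The difference was -0.84 ± 0.48 (SE; limma adjusted p = 0.231, exact permutation p = 0.200).

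Without knockout replicate 3 the picture of the subunits changed. Then 6 of the 9 genes were called, all lower, where 25.7% of all genes were called and 13.4% called lower. Chrna1 had a difference of -0.94 (limma adjusted p = 0.0493), Chrnd one of -1.26 (adjusted p = 0.0499) and Chrne one of -1.14 (adjusted p = 0.0537). The calls then also took in Dok7 (adjusted p = 0.0177). Other libraries moved the values the other way: without control replicate 2 the difference was -0.42 for Chrna1 and -0.42 for Chrne, and without knockout replicate 1 it was -0.39 for Chrnd. Without knockout replicate 4 none of the 9 was called (lowest limma adjusted p 0.0542, for Colq; 4 of the 9 had an unadjusted p under 0.05 in the same fit), where 11.7% of all genes were called.

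The foetal gamma subunit was present at the edge of detection. Chrng (chromosome 1, 87204657 to 87212694), the immediate neighbour of Chrnd on the same strand, held 4, 11, 10 and 9 reads in the control libraries and 3, 8, 6 and 4 in those labelled knockout. As a share of the reads of Chrng and Chrne together, it made up 2.25%, 2.37%, 3.57% and 7.32% in the control libraries and 2.80%, 7.27%, 2.09% and 2.84% in those labelled knockout. The exact (Clopper-Pearson) 95% interval of the highest share, control replicate 4, was 3.40% to 13.4%, and that of the lowest, knockout replicate 3, was 0.771% to 4.49%, which covers counting error only. The log2 ratio of Chrng to Chrne differed by 0.06 between the groups, with means of -4.64 ± 0.78 and -4.58 ± 0.78 (SD, n = 4; exact permutation p = 0.971). With so few reads a moderate change of the ratio was not detectable at this depth.

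Rapsn (chromosome 2, 91035620 to 91045729) separated the groups. Its normalised counts were 549, 719, 510 and 556 in the control libraries and 423, 418, 497 and 367 in those labelled knockout, so the lowest control lay just above the highest library labelled knockout. The difference was -0.45 ± 0.13 (SE; limma adjusted p = 0.0348, exact permutation p = 0.0286, the smallest that the 70 assignments allow). The non-coding gene Gm13778 overlaps it on the opposite strand. The call was lost on leaving out any 1 of controls 1, 2 and 4 and knockouts 1, 2 and 4, with adjusted p between 0.0529 and 0.0975, and whichever library was left out the difference stayed between -0.52 and -0.34.

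Colq (chromosome 14, 31523082 to 31591343) encodes the collagen tail that anchors acetylcholinesterase in the synaptic basal lamina. It had 96.3, 144, 100 and 80.0 normalised reads in the control libraries and 53.9, 53.0, 68.5 and 53.7 in those labelled knockout. The groups did not overlap, as they also did not for Rapsn, so that 2 of the 9 genes were separated, both lower, where 25.1% of all genes tested were separated and 13.4% were separated and lower. The difference of -0.84 ± 0.21 (SE) passed the test (limma adjusted p = 0.0191, exact permutation p = 0.0286). Its call was kept by edgeR (adjusted p = 0.0212), by DESeq2 (adjusted p = 0.00275) and without any single library other than knockout replicate 4 (adjusted p = 0.0542). The annotation places Gm49387, a coding gene, on the same strand over part of Colq, where reads could be assigned to either.

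Dok7 (chromosome 5, 35056766 to 35087839), the adaptor that activates Musk from within the fibre, had 469, 550, 385 and 515 normalised reads in the control libraries and 323, 282, 446 and 342 in those labelled knockout. Only knockout replicate 3 lay within the control range. The difference was -0.47 with a standard error of 0.16 and just missed the call (limma adjusted p = 0.0567, exact permutation p = 0.0571), while DESeq2 called it (adjusted p = 0.0405).

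Musk (chromosome 4, 58285960 to 58374303), the receptor tyrosine kinase of the synapse, did not follow Chrna1 and Chrne. It had 72.5, 105, 125 and 238 normalised reads in the control libraries and 97.7, 96.6, 52.2 and 91.5 in those labelled knockout. Its highest library was control replicate 4, the lowest of the control libraries for Chrna1, Chrnb1, Chrnd and Chrne, and its lowest was knockout replicate 3, the highest of its group for those 4 subunits. The difference of -0.58 ± 0.35 (SE) was not called (limma adjusted p = 0.249, exact permutation p = 0.229), and it was -0.26 without control replicate 4.

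Lrp4 (chromosome 2, 91457511 to 91513779), the agrin receptor, had 710, 387, 369 and 381 normalised reads in the control libraries and 605, 525, 461 and 438 in those labelled knockout. Control replicate 1 was far above the other 3 controls, which all lay below every library labelled knockout. The difference was 0.18 ± 0.21 (SE; limma adjusted p = 0.549, exact permutation p = 0.457). Without control replicate 1 it was 0.41 (limma adjusted p = 0.0512). Lrp4 is also made in bone, where it binds sclerostin. The list of osteoblast and osteocyte genes had a log2 difference above 0 for all 10 members (for Phex, whose mean count was lower in the libraries labelled knockout, 0.51 with an SE of 0.82), 3 of them called (Col1a1, Ibsp and Sp7), and a summed level of 64200, 14340, 32740 and 15040 in control replicates 1 to 4 and 69370 to 103500 in the libraries labelled knockout. Most of that sum came from Col1a1 alone, with 58030, 13230, 30460 and 13410 normalised reads in control replicates 1 to 4. In the libraries labelled knockout Col1a1 had 63990 to 93110. Sp7, an osteoblast transcription factor, had 468 normalised reads in control replicate 1 and 57.5 to 159 in the other controls. The order of the libraries was not the same throughout. Knockout replicate 4 had the lowest Lrp4 of its group, with a bone list sum above those of knockout replicates 2 and 3. Control replicate 3 had the lowest Lrp4 of all, with a bone list sum above those of control replicates 2 and 4. A summed list of chondrocyte genes was also highest among the controls in control replicate 1, at 11380 against 3743 to 8451. The parts of bone and cartilage cells in the level of Lrp4 were not tested.

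**Figure D3:**
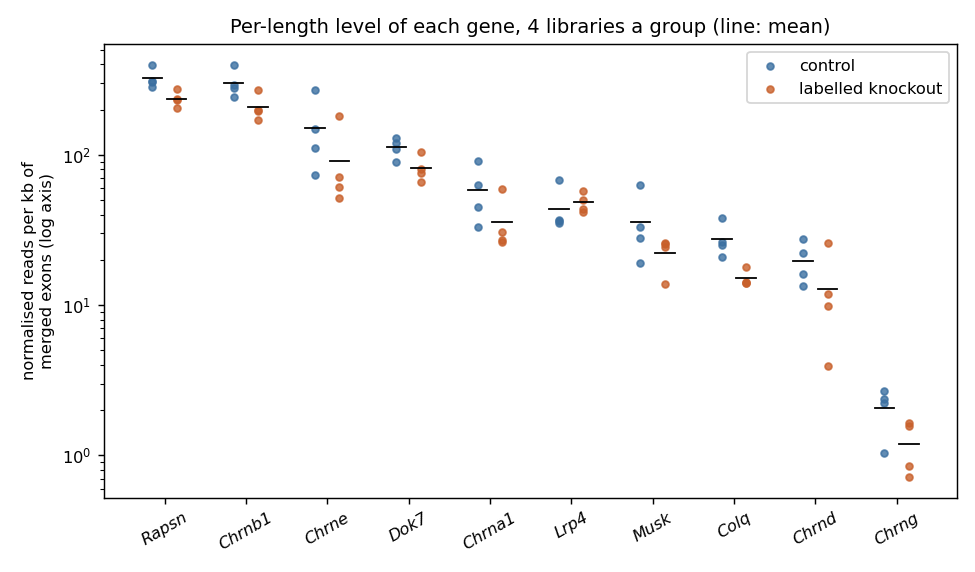
Normalised reads per kilobase of merged exons (log axis) of the 10 genes, ordered by the control mean, with a point for each library and a line at the group mean. Rapsn and Chrnb1 lead both groups and Chrng is the lowest in both.

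Levels of different genes were compared per kilobase of merged exons. In the control libraries Rapsn had 324 ± 51.2 and Chrnb1 303 ± 65.0 normalised reads per kilobase (SD, n = 4), with Rapsn above Chrnb1 in 3 of 4 libraries, so these neighbours in the order did not differ beyond their spread. Chrne followed at 151 ± 85.3 and Dok7 at 112 ± 16.7, again with overlapping libraries. Chrna1 had 58.0 ± 25.0, Lrp4 44.0 ± 15.8, Musk 35.8 ± 19.0, Colq 27.7 ± 7.24 and Chrnd 19.8 ± 6.36 normalised reads per kilobase. Chrng stood apart at 2.08 ± 0.716, below Chrnd in every library. The order in the libraries labelled knockout was the same except that Lrp4, at 48.3 ± 7.13, stood above Chrna1, at 36.0 ± 15.8. With the length of the longest coding transcript in place of merged exons, Dok7 moved above Chrne in both groups and Lrp4 above Chrna1 in the controls.

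**Figure D4:**
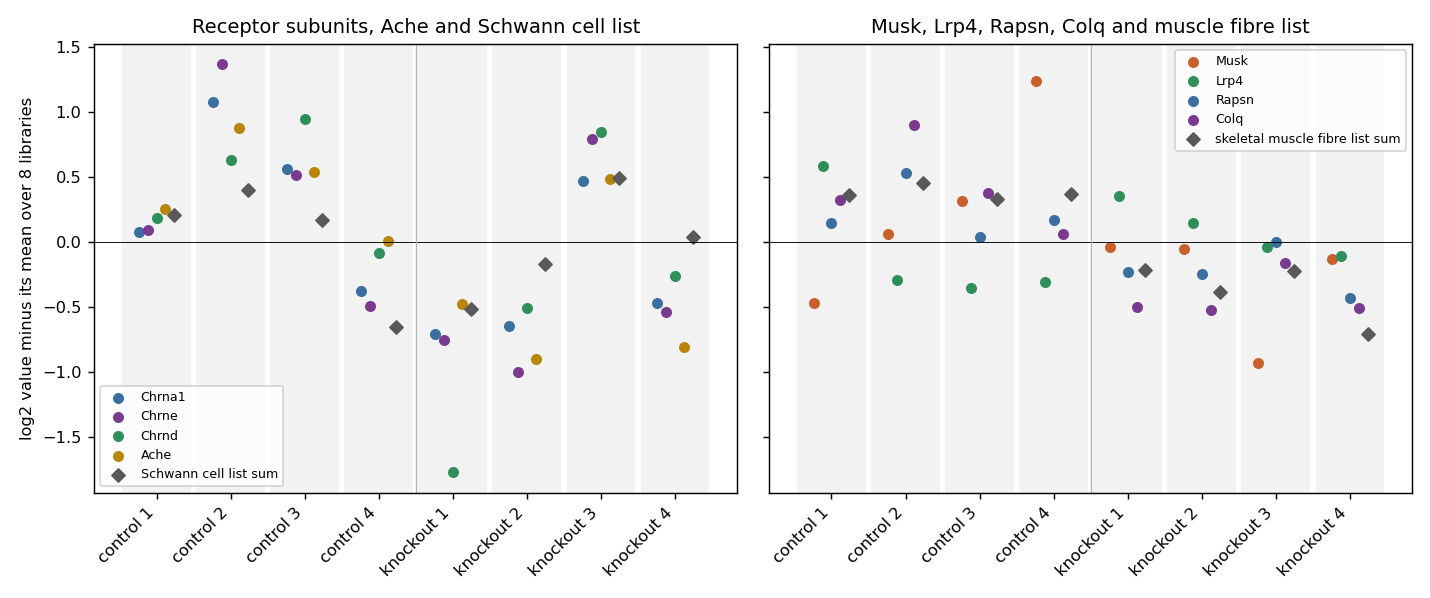
Log2 value of each gene or list sum minus its own mean over the 8 libraries (vertical axis), by library, with points for genes and diamonds for list sums. On the left, Chrna1, Chrne, Ache and the Schwann cell list are highest in control replicate 2 or knockout replicate 3, and on the right Musk and Lrp4 have their highest points in control replicates 4 and 1.

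The pattern of single libraries was shared most closely by Chrna1 and Chrne. Likeness was measured as the root mean square difference of log2 values after each gene was centred on its mean over the 8 libraries, where 0 is an identical pattern. Among all genes tested, Chrne was the nearest to Chrna1 (0.21) and Chrna1 the nearest to Chrne (0.21), against a median of 0.67 and 0.83 over all genes. Gm10435 (0.23) and Ufsp1 (0.24) were also among the 3 nearest to Chrna1. Ufsp1 (chromosome 5, 137294629 to 137295665) follows directly downstream of Ache, which ends at 137294466 on the same strand, so that reads running past the end of Ache could be counted for it. The next genes for Chrne were Gm37090 (0.30) and Unc13c (0.31), of the Munc13 family of vesicle priming proteins. Musk ranked 11955 in likeness to Chrna1 and Lrp4 ranked 10458. The nearest genes to Lrp4 were Scube3 (0.15), Ttc21b (0.16), a gene of the primary cilium, and Panx1 (0.17), which encodes a membrane channel, and the best placed other gene of the junction, Rapsn, ranked 8919.

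Markers of peripheral nerve moved with Chrna1 and Chrne. The summed normalised count of 10 Schwann cell genes, none at 0, was 1438, 1642, 1398 and 789 in the control libraries and 871, 1105, 1748 and 1275 in those labelled knockout. The highest library of each group was the one highest in Chrna1 and Chrne, and the lowest, control replicate 4 and knockout replicate 1, were also the lowest of their groups for Chrna1. Mbp, a myelin protein gene, had 253 normalised reads in control replicate 4 and 436 to 448 in the other controls. Between the groups 1 of the 10 Schwann cell genes was called, S100b, higher by 1.18 (limma adjusted p = 0.00588), and S100b is also a gene of cartilage and fat. Of 10 motor neuron and axon genes 6 were in the table, and 0 of the 3 tested were called (limma; 0 had an unadjusted p under 0.05, and edgeR and DESeq2 called 0). Nefl, Nefm, Isl1 and Mnx1 had no row. The part of nerve content in the subunit levels was not tested.

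Of 34 further genes of the neuromuscular synapse, 30 were tested and 9 were called, 6 lower and 3 higher, where 23.2% of all genes were called. Their median difference was -0.11. The falls were led by Scn4a, the sodium channel that carries the muscle action potential, which fell by 0.92 ± 0.12 (SE; limma adjusted p = 0.00397). Dnaja3, a co-chaperone that binds the cytoplasmic part of Musk, fell by 0.64 (adjusted p = 0.00581), and Plec, the cytoskeletal linker plectin, fell by 0.56 (adjusted p = 0.0061). Dtna, which encodes dystrobrevin alpha, and Vamp1, a vesicle SNARE gene, were also called lower. With the muscle fibre list set equal, Scn4a had a difference of -0.23, Dnaja3, Plec, Dtna and Vamp1 had differences of 0.05 to 0.33, and 18 of the 30 genes were called, all higher, where 67.1% of all genes were called higher.

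The rises were in Agrn, the agrin gene, by 0.48 (limma adjusted p = 0.0153), in Col13a1, a transmembrane collagen of the synapse, by 1.66 (adjusted p = 0.0432), and in Gmppb, an enzyme of glycosylation, by 0.58 (adjusted p = 0.0491). Col13a1 lost its call in 12 and Gmppb in 10 of 19 alternatives, and 1 gene of the list was called higher on leaving out any 1 of controls 2 and 4 and knockouts 1, 2 and 4. Col13a1 had 187, 23.2, 72.0 and 41.6 normalised reads in the control libraries and 214, 241, 177 and 153 in those labelled knockout. Its highest control was replicate 1, as for Sp7 and the osteoblast and osteocyte list sum. The part of cells other than muscle in the 3 rises was not tested. Agrn had 642, 688, 542 and 582 normalised reads in the control libraries and 909, 747, 966 and 811 in those labelled knockout, with no overlap. These 3 rises and the genes Ache, Myog, Trim63, Dtna and Vamp1 were named after their values were seen. Ache, the acetylcholinesterase gene that Colq serves, had 634, 976, 772 and 536 normalised reads in the control libraries and 382, 284, 744 and 304 in those labelled knockout. As for Chrna1, Chrnb1, Chrnd and Chrne, knockout replicate 3 alone lay within the control range, and the difference of -0.84 was not called (limma adjusted p = 0.0631). No row of the table carried Nrg1, Chat, Slc5a7 or Slc18a3, the last 3 being genes of the cholinergic nerve terminal that are transcribed in the motor neuron's cell body.

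Of 15 genes known to respond to loss of innervation in muscle, all tested, 3 were called higher and 1 lower, near the background of 23.2% of all genes called, and their median difference was -0.13. Runx1 rose by 1.40, Ncam1 by 0.90 and Nnmt by 1.08 (limma adjusted p = 0.00911, 0.0176 and 0.0271). Runx1 is a transcription factor also made in blood, cartilage and bone cells. Ncam1 is an adhesion protein also made in nerve, and Nnmt an enzyme of fibroblasts and fat. All 10 genes of a list of fibroblast markers had higher means in the libraries labelled knockout. Of these 7 were called, where 11.6% of all genes were called higher. Their summed level was 25620 to 91280 in the control libraries and 87210 to 163700 in those labelled knockout. The part of other cells in the rises of Runx1, Ncam1 and Nnmt was not tested. Myog, the myogenic factor that activates receptor subunit genes in denervated fibres, had a difference of -0.36 that was not called (limma adjusted p = 0.323). Trim63, a ubiquitin ligase of muscle atrophy, was the called fall, by 0.57 (adjusted p = 0.0397). Nnmt lost its call in 8 and Trim63 in 10 of 19 alternatives, and Trim63 had the opposite sign (0.12) with the muscle fibre list set equal.

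Developing muscle was compared through 10 genes, 8 of them tested, of which 2 were called lower and 1 higher, where 11.6% of all genes were called in each direction. Myh8, the perinatal myosin heavy chain, fell from 415 ± 246 to 155 ± 34.1 normalised reads (SD, n = 4; difference -1.26, limma adjusted p = 0.0342). Myh3, the embryonic myosin heavy chain, fell from 404 ± 128 to 192 ± 44.8 (difference -1.04, adjusted p = 0.0204). Vcam1, also a gene of endothelium and stroma, rose by 1.11 (adjusted p = 0.0451). With the muscle fibre list set equal the difference was -0.57 for Myh8 (limma adjusted p = 0.135) and -0.35 for Myh3 (adjusted p = 0.294), neither called. Over 19 alternatives Myh8 lost its call in 8, Myh3 in 4 and Vcam1 in 10.

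The differences of the 3 called genes were negative within each sex, which adds no support to their calls. The groups of Colq and Rapsn did not overlap, so any split of these libraries gives that sign. For Chrnb1 each library labelled knockout lay below the controls of its own sex. Chrna1, Chrnd, Chrne, Chrng, Musk and Dok7, which were not called, were negative in both sexes too. Within the females (2 control and 3 labelled knockout) the difference was -1.004 for Colq, -0.60 for Chrnb1 and -0.56 for Rapsn, and within the males (2 and 1) it was -0.74, -0.64 and -0.35, with no test. With sex as a further term, chosen after seeing the data, 4 of the 9 genes were called, Dok7 being added (limma adjusted p = 0.0315), where 22.6% of all genes were called. Lrp4 had a difference of -0.08 within the females and 0.48 within the males, the former resting on control replicate 1.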

How the data were processed

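RNA of 8 knee joints was sequenced after poly-A selection. Per the submitters' processing notes the authors used HISAT2, featureCounts and mm10, and per the series' design text they normalised and filtered with DESeq2. Versions, annotation, strand and filter values are not given in the sources used here. The deposited values are a signal, the gene's read count divided by the library's size factor. In each library 100.0% of the values were whole multiples (within 0.01) of the smallest one, which gave back the reads. The step closest to 1 was 1.01 in control replicate 2 and 0.997 in knockout replicate 1. Recomputed median-of-ratios size factors equalled the inverse of each step.

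Genes that reached 10 in 4 or more libraries were fitted with limma 3.58.1 (lmFit, eBayes with trend) on log2(value + 1) with 1 group term, and p-values were adjusted by Benjamini-Hochberg over all 14949 genes (threshold 0.05). Single genes also had an exact two-sided permutation test over 70 assignments. On simulated counts for 14994 genes, 200 changed, limma made 181 calls, 10 false, and found 73.0% of log2 changes of 1. The changed genes were drawn from those above a minimum mean read count, and no log2 change was smaller than 1. Far fewer genes were changed than were called in the data. The share found is therefore not that for the smaller differences of the junction genes. Alternatives were pseudocounts of 0.5 and 5, no filter, TMM, quantile and muscle list scaling, a replicate block, edgeR 4.0.16 and DESeq2 1.42.0 on recovered reads, and leaving out each library. A sex term and leaving out control replicate 2 with knockout replicate 3 were added after seeing the data.

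Coordinates, overlaps and exon lengths came from GENCODE M21 (the mm10 assembly), which matched 20520 of 20681 names. The genes of the junction and the lists were chosen with earlier results of these data known. Besides the members, at most 3 genes of smallest p were named per list, the 3 genes nearest in pattern to Chrna1, Chrne and Lrp4, and Loxl2. Lists of chondrocyte (1 of 9 tested genes called, higher) and macrophage genes (8 of 10 called, higher) were also read. Results of some genes are not reported here.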

Additional observations from a re-analysis of the deposited data

Results flagged for a closer look

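In 11 of 88 groups of 4 libraries examined, 1 library lay apart from the other 3 by more than Dixon's critical value for its gap, which chance alone passes in about 1 group in 20. Knockout replicate 3 was the library apart in 6 of the 11. It was the highest of its group for Chrna1 (261 normalised reads), Chrne (306), Colq (68.5), Ufsp1 (334) and Gm37090 (95.7), and the lowest for Musk (52.2). Control replicate 1 was the highest control for Lrp4 (710) and for Scube3 (67.1). Control replicate 3 was the highest control for Loxl2 (1135) and Runx1 (467), and control replicate 4 the lowest for Mbp (253). Ufsp1, Gm37090 and Scube3 were named for a pattern like that of Chrna1, Chrne or Lrp4, so their flags repeat those genes. The 88 groups are therefore not independent, and the share of 1 in 20 gives no test of the 11.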

How the results depend on the processing

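The count of junction genes called, 3 with all libraries, ran from 0 to 6 when 1 library was left out, was 1 with the muscle fibre list set equal (Lrp4, higher) and stayed within 2 to 4 with the other alternatives without a block. Over all genes the count was 3461, 10043 with the muscle list set equal and 1751 to 3841 without a library. Of the further synapse genes 9 were called, 5 under quantile normalisation and 18 with the muscle list set equal. Of the denervation genes 4 were called, 2 under quantile normalisation, 8 with the muscle list set equal, 2 to 4 without a library and 1 without control replicate 2 and knockout replicate 3 together, an alternative chosen after seeing the data. The numbers of the replicates did not pair the libraries: same-numbered libraries correlated at -0.23 to 0.21 in their deviations from the group means, and 2 of 8 correlated best with their own number. With a replicate block the counts were 1 junction gene (Colq), 2018 genes in all, 2 denervation genes and 6 further synapse genes, all 6 lower, so that the rise of Agrn was not called (limma adjusted p = 0.0524).

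With the muscle fibre list set equal the sign changed for Chrna1 (0.0129), Chrnb1 (0.15), Musk (0.10), Dok7 (0.22), Rapsn (0.24), Ufsp1 (0.14), Dnaja3 (0.0508), Plec (0.12), Mbp (0.25), Dtna (0.33), Vamp1 (0.21), Myog (0.32) and Trim63 (0.12), as that scaling moves the median of all genes from 0.00 to 0.68. Without control replicate 4 it changed for Panx1 (-0.0034, from -0.0034 to 0.356 without 1 library). The log2 ratio of Chrng to Chrne, 0.06 with all libraries, was -0.11 without control replicate 1, -0.14 without control replicate 2 and -0.30 without knockout replicate 2, and ranged from -0.30 to 0.43 without 1 library. The cause of the shifts on leaving out a library was not tested. Of 817 alternative values for 43 named genes, 652 kept direction and side of the threshold. Depth limits Chrng most, with 3 to 11 reads per library.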
